A study of Caenorhabditis elegans with 20 samples.

Results

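The short-chain dehydrogenase (*dhs*), aldehyde dehydrogenase (*alh*), steroid dehydrogenase family (*stdh*) and sorbitol dehydrogenase family (*sodh*) genes of *Caenorhabditis elegans* were taken by their symbols, with *alh-8* left out, which gave 47 of the 22736 genes in the count table. They were 30 *dhs*, 12 *alh*, 4 *stdh* genes and 1 *sodh* gene. RNA was sequenced from the bodies, without embryos, of pooled synchronized gravid adults grown on *E. coli* OP50, in 4 groups of 5 biological replicates. Wild-type N2 animals and *Δdhgd-1* mutants, which carry the deletion allele *dhgd-1(tm6671)* backcrossed to N2, were each grown without supplement or with 64 nM vitamin B12 (adenosylcobalamin). *dhgd-1* encodes a D-2-hydroxyglutarate dehydrogenase of the propionate shunt, the route of propionate breakdown that does not need vitamin B12. Strains of all 4 groups were kept on vitamin B12 plates before the experiment, and the mutant is a single deletion allele. The study compared the strains on each diet and each strain between the diets.

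Dehydrogenases of these families move electrons between small molecules and the cofactors NAD and NADP. Aldehyde dehydrogenases oxidize reactive aldehydes to acids and act in lysine, proline and fatty aldehyde breakdown. Short-chain dehydrogenases interconvert alcohols and ketones of sugars, fatty acids and sterols, and alcohol dehydrogenases act on ethanol and related compounds.

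Library totals ranged from 2837943 to 15457950 counts (median 10564242.5), and replicates 1 and 2 of each group carried library names of one series and replicates 5, 6 and 7 of another. No label names the sequencer, so the series stand for the sequencing batch only by inference. Of the marker genes of 6 cell types, none of those tested passed in any comparison. The neuron marker *sng-1* was not tested, and of the 5 hypodermis markers only *elt-3* and *nhr-23* were. All 6 intestine markers were above 0 in all 20 libraries, and their summed CPM (counts scaled to a common TMM-normalised library size) ran from 625 to 1008 in unsupplemented wild type and from 607 to 769 in unsupplemented mutants. On vitamin B12 it ran from 356 to 902 in the wild type and from 605 to 984 in the mutants. All 5 genes listed as early embryo markers were also above 0 in all 20 libraries. Counts of whole bodies cannot tell embryo RNA from RNA of the adult germline, so they do not show that embryos were present. The deletion removes the 5′ end of *dhgd-1* while the counts come from 3′ ends. The counts of *dhgd-1* were not looked at here, so the genotype rests on the labels.

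Of the 47 genes, 38 passed the filter on low counts and were tested, namely 26 of 30 *dhs*, 11 of 12 *alh* and 1 of 4 *stdh* genes. The 47 genes together took 0.146% to 0.229% of the counts of a library. In unsupplemented wild type, 4 genes were at 100 CPM or more, 18 between 10 and 100, 14 between 1 and 10 and 11 under 1 CPM. The 5 genes *alh-9*, *dhs-13*, *alh-4*, *dhs-1* and *alh-1* held 66.6% of the 312235 counts of the family. Cel-seq2, a method that tags libraries with barcodes, counts the 3′ end of each transcript, so levels of different genes were set side by side without division by length. In wild type *alh-9* was at 486 ± 119 CPM (SD, n = 5), *dhs-13* at 376 ± 51.1, *alh-4* at 241 ± 70.2, *dhs-1* at 133 ± 16.2 and *alh-1* at 79.9 ± 10.9. The ranges of *alh-9* and *dhs-13* overlapped, as did those of *dhs-13* and *alh-4*, whereas *alh-4* lay above *dhs-1* and *dhs-1* above *alh-1* in every wild-type library. In mutants *alh-9* was at 237 ± 40.6 CPM, beside 276 ± 48.2 for *dhs-13* and 238 ± 42.1 for *alh-4*. Chromosome V carried 20 of the 47 genes and chromosome X carried 8.

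**Figure D1:**
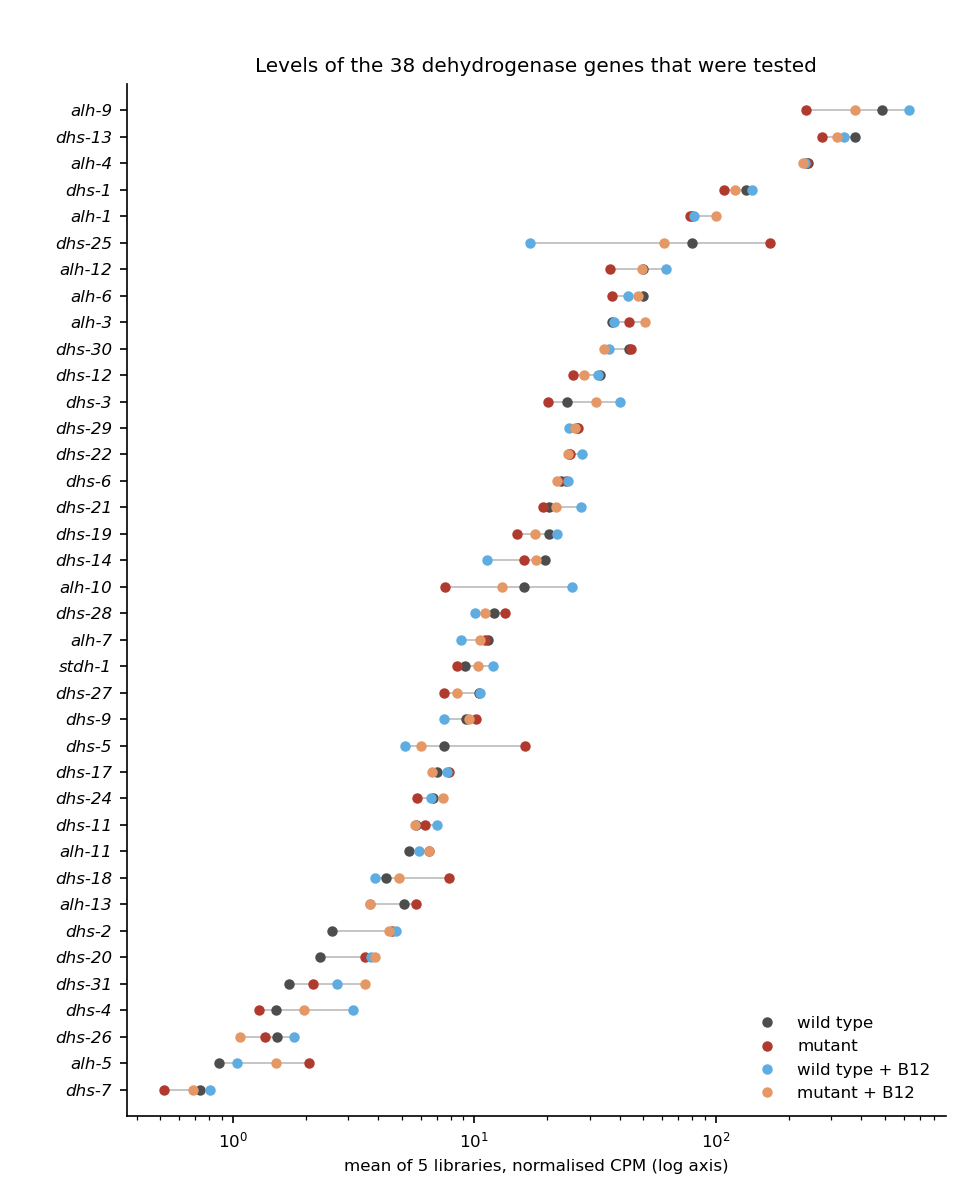
Mean normalised CPM of the 5 libraries of each group (log axis) for the 38 dehydrogenase genes that were tested, ordered by the mean of all 20 libraries, with a grey line from the lowest to the highest group. The line of *dhs-25* runs from 17.0 CPM in wild type with vitamin B12 to 168 CPM in unsupplemented mutants.

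Between unsupplemented mutants and wild type, 3 of the 38 genes passed the test (7.89%): *alh-9* and *alh-10* fell and *dhs-5* rose. Across all genes tested, 2.81% passed. A gene passed with an adjusted p under 0.05 (edgeR quasi-likelihood, Benjamini-Hochberg over all genes) and a fold change over 1.5. The median log2 fold change was -0.03 for the 38 genes and -0.03 for all genes. At an unadjusted p under 0.05 there were 12 of the 38 (31.6%), against 15.1% of all genes. In whole bodies, fewer cells of a type and less RNA per cell cannot be told apart.

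*alh-9* (chromosome III, 5856018 to 5859179, plus strand, WBcel235) encodes the worm ortholog of human ALDH7A1, the aminoadipate semialdehyde dehydrogenase of lysine breakdown. Its level in unsupplemented wild type, replicates 1, 2, 5, 6 and 7 in that order, was 618, 608, 440, 366 and 400 CPM. In unsupplemented mutants it was 231, 284, 174, 256 and 241 CPM. Every mutant library lay below every wild-type library, and the wild-type libraries of the first series were the highest. The log2 fold change was -1.0002 (SE 0.17, adjusted p = 0.000961), a 2.00-fold lower level, and it was lower in 5 of 5 same-numbered pairs. Leaving out any 1 of the 10 libraries kept the call, with adjusted p-values up to 0.00523. Within the first series the value was -1.15 (adjusted p = 0.129) and within the second -0.85 (adjusted p = 0.105).

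With vitamin B12, *alh-9* was at 697, 1033, 479, 451 and 480 CPM in wild type. In mutants with vitamin B12 it was at 458, 401, 325, 332 and 361 CPM. The 2 groups overlapped only through mutant replicate 1, which lay above wild-type replicate 6. The strains differed by -0.69 on the log2 scale (adjusted p = 0.0659), which did not pass. It passed with replicate number as a block (-0.69, adjusted p = 0.0348) and in DESeq2 (adjusted p = 0.00218).

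Vitamin B12 raised *alh-9* in mutants by 0.65 on the log2 scale (SE 0.17, 1.57-fold, adjusted p = 0.0439), with no overlap between the mutant groups. The call was lost in 8 of 10 fits that left out 1 library, all but those without mutant replicate 6 or mutant replicate 2 with vitamin B12 (adjusted p up to 0.152). It was 0.70 within the first series (adjusted p = 0.541) and 0.60 within the second (adjusted p = 0.369), neither past the threshold. Without the filter on low counts the call was also lost (0.67, adjusted p = 0.0934). In wild type the value was 0.34 (95% interval -0.004 to 0.69, adjusted p = 0.649). The difference between the strains' responses was 0.31 (95% interval -0.19 to 0.80, adjusted p = 0.999). With vitamin B12 the mutant mean was 375 ± 55.2 CPM, beside 486 ± 119 CPM in unsupplemented wild type, with overlapping libraries. The difference between these groups was not tested. The unsupplemented mutant libraries serve in both the strain and the diet comparison of *alh-9*, so those values are not independent.

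*alh-10* (chromosome X, 7140504 to 7143641, minus strand) is another aldehyde dehydrogenase gene and fell in unsupplemented mutants. It was at 30.7, 10.8, 10.4, 10.5 and 18.2 CPM in unsupplemented wild type and at 8.25, 8.65, 6.84, 8.05 and 5.89 CPM in unsupplemented mutants. The groups did not overlap, but replicate 1 of the wild type was well above the others. The log2 fold change was -1.08 (SE 0.29, adjusted p = 0.0395). The call held only in the fits without wild-type replicate 2, 5 or 6, and was lost when any other of the 10 libraries was left out. Without wild-type replicate 1 the value was -0.77 (adjusted p = 0.232). The first series alone gave -1.23 (adjusted p = 0.301) and the second -0.92 (adjusted p = 0.401). *alh-10* overlaps *clec-86* on the other strand, a gene at 1.27 CPM. Whether the counting used strand is not given in the sources used here, so the reads of the 2 genes may not be told apart where they overlap.

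With vitamin B12, *alh-10* was at 40.6, 23.4, 11.8, 25.6 and 25.2 CPM in wild type and at 13.2, 13.99, 8.13, 15.8 and 14.3 CPM in mutants. The strains overlapped through wild-type replicate 5 alone, and the value of -0.90 did not pass (adjusted p = 0.293). Vitamin B12 against no supplement gave 0.64 in wild type (adjusted p = 0.510) and did not pass. The value for mutants was 0.81 (adjusted p = 0.213), which did not pass either. In both strains all 5 same-numbered pairs were higher with vitamin B12.

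*dhs-5* (chromosome II, 5453847 to 5455977, plus strand), a short-chain dehydrogenase, had its highest group mean in unsupplemented mutants. It overlaps the non-coding gene *F56D1.9* on the other strand, for which no value was used here. It was at 19.4, 4.72, 4.41, 4.64 and 4.35 CPM in unsupplemented wild type and at 22.7, 22.04, 12.8, 13.3 and 9.80 CPM in unsupplemented mutants. The other 4 wild-type libraries were below all mutants, while wild-type replicate 1 stood among the mutants. The log2 fold change was 1.15 (SE 0.29, 2.22-fold, adjusted p = 0.0269). Without wild-type replicate 1 it was 1.72 (adjusted p = 0.000301). The call also held without mutant replicate 7 and was lost in the other 8 fits that left out 1 library, with values from 0.99 to 1.14 and adjusted p up to 0.0801. Within the first series it was 0.94 (adjusted p = 0.443) and within the second 1.42 (adjusted p = 0.0248).

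**Figure D2:**
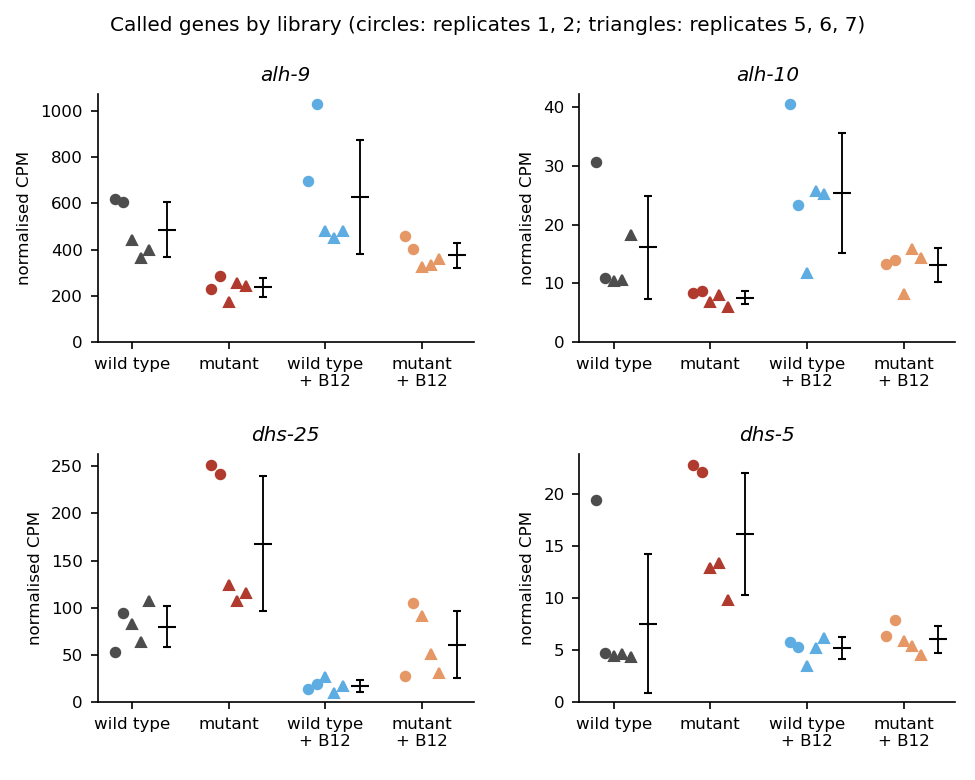
Normalised CPM of *alh-9*, *alh-10*, *dhs-25* and *dhs-5* in each of the 20 libraries (circles, replicates 1 and 2; triangles, replicates 5, 6 and 7), with the mean and SD of each group of 5 in black. The wild-type library with *dhs-5* at 19.4 CPM stands among the mutants, and the 5 wild-type libraries with vitamin B12 hold *dhs-25* at 9.89 to 26.3 CPM, below all other libraries.

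With vitamin B12 *dhs-5* was at 5.80, 5.24, 3.48, 5.21 and 6.14 CPM in wild type and 6.38, 7.86, 5.87, 5.39 and 4.49 CPM in mutants. Their log2 difference was 0.16 (95% interval -0.45 to 0.78, adjusted p = 0.964). The ranges of the strains overlapped. In mutants *dhs-5* fell with vitamin B12, with a log2 fold change of -1.37 (SE 0.29, adjusted p = 0.00873), a 2.58-fold lower level. Every supplemented mutant library lay below every unsupplemented one, and the call held when any 1 of the 10 libraries was left out (adjusted p up to 0.0384). Within the first series the value was -1.71 (adjusted p = 0.472) and within the second -1.19 (adjusted p = 0.0563). In wild type it was -0.37 (adjusted p = 0.938), with 2 of 5 same-numbered pairs lower, and without wild-type replicate 1 it turned to 0.18 (95% interval -0.36 to 0.71, adjusted p = 0.966). The difference between the responses was -0.99 (unadjusted p = 0.0256, adjusted p = 0.999) and did not pass. Without wild-type replicate 1 that difference was -1.59 (unadjusted p = 0.000126, adjusted p = 0.130), which did not pass either. The unsupplemented mutant libraries serve in both the strain and the diet comparison, so the 2 values are not independent.

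In the comparison of the strains on vitamin B12, 1 of the 38 genes passed (2.63%), *dhs-25*, against 0.55% of all genes. Vitamin B12 in wild type changed 1 gene (2.63%), also *dhs-25*, against 1.45% of all genes. In mutants it changed 3 genes (7.89%), *dhs-25* and *dhs-5* downward and *alh-9* upward, against 1.86% of all genes. The median log2 fold changes of the 38 genes were -0.07, 0.06 and 0.15 in these 3 comparisons, beside 0.01, -0.03 and 0.01 for all genes.

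*dhs-25* (chromosome X, 1486532 to 1489326, plus strand), a short-chain dehydrogenase gene, had the widest range of group means, as a ratio, among the 38. It was at 52.7, 94.2, 82.6, 63.8 and 107 CPM in unsupplemented wild type and at 13.4, 18.7, 26.3, 9.89 and 16.5 CPM in wild type with vitamin B12. Every supplemented library was below every unsupplemented one. The log2 fold change was -2.23 (SE 0.36, adjusted p = 0.000526), a 4.68-fold lower level, and no single library decided the call (adjusted p up to 0.00371). Within the series the values were -2.12 (adjusted p = 0.421) and -2.26 (adjusted p = 0.00966).

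In mutants *dhs-25* was at 251, 242, 124, 107 and 116 CPM without and at 27.4, 105, 91.7, 50.5 and 30.3 CPM with vitamin B12. The mutant groups did not overlap, although supplemented replicate 2 lay just under unsupplemented replicate 6. The fold change was -1.43 (SE 0.35, 2.69-fold lower, adjusted p = 0.0270). The call was lost without unsupplemented mutant replicate 1 or 2, or supplemented mutant replicate 1, 6 or 7 (adjusted p up to 0.0837). Within the first series the value was -1.97 (adjusted p = 0.350) and within the second -1.01 (adjusted p = 0.400). The responses of the strains differed by 0.80 (95% interval -0.20 to 1.81, adjusted p = 0.999), which did not pass.

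Between the strains on vitamin B12, *dhs-25* was higher in mutants by 1.81 on the log2 scale (SE 0.36, 3.51-fold, adjusted p = 0.0111), and every mutant library was above every wild-type library. The call was lost without wild-type replicate 1 with vitamin B12, or mutant replicate 2 or 5 with vitamin B12 (values 1.53 to 1.68, adjusted p up to 0.0733). Within the first series it was 2.02 (adjusted p = 0.606) and within the second 1.71 (adjusted p = 0.201). Without supplement the strains differed by 1.01 (95% interval 0.29 to 1.72, adjusted p = 0.131), which did not pass, and mutant replicate 6 overlapped the highest wild-type library. That value passed with replicate number as a block (1.05, adjusted p = 0.0369) and without the filter on low counts (1.03, adjusted p = 0.000644). It was 1.86 in the first series (adjusted p = 0.166) and 0.45 in the second (adjusted p = 0.927), and the difference between the series was not tested.

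**Figure D3:**
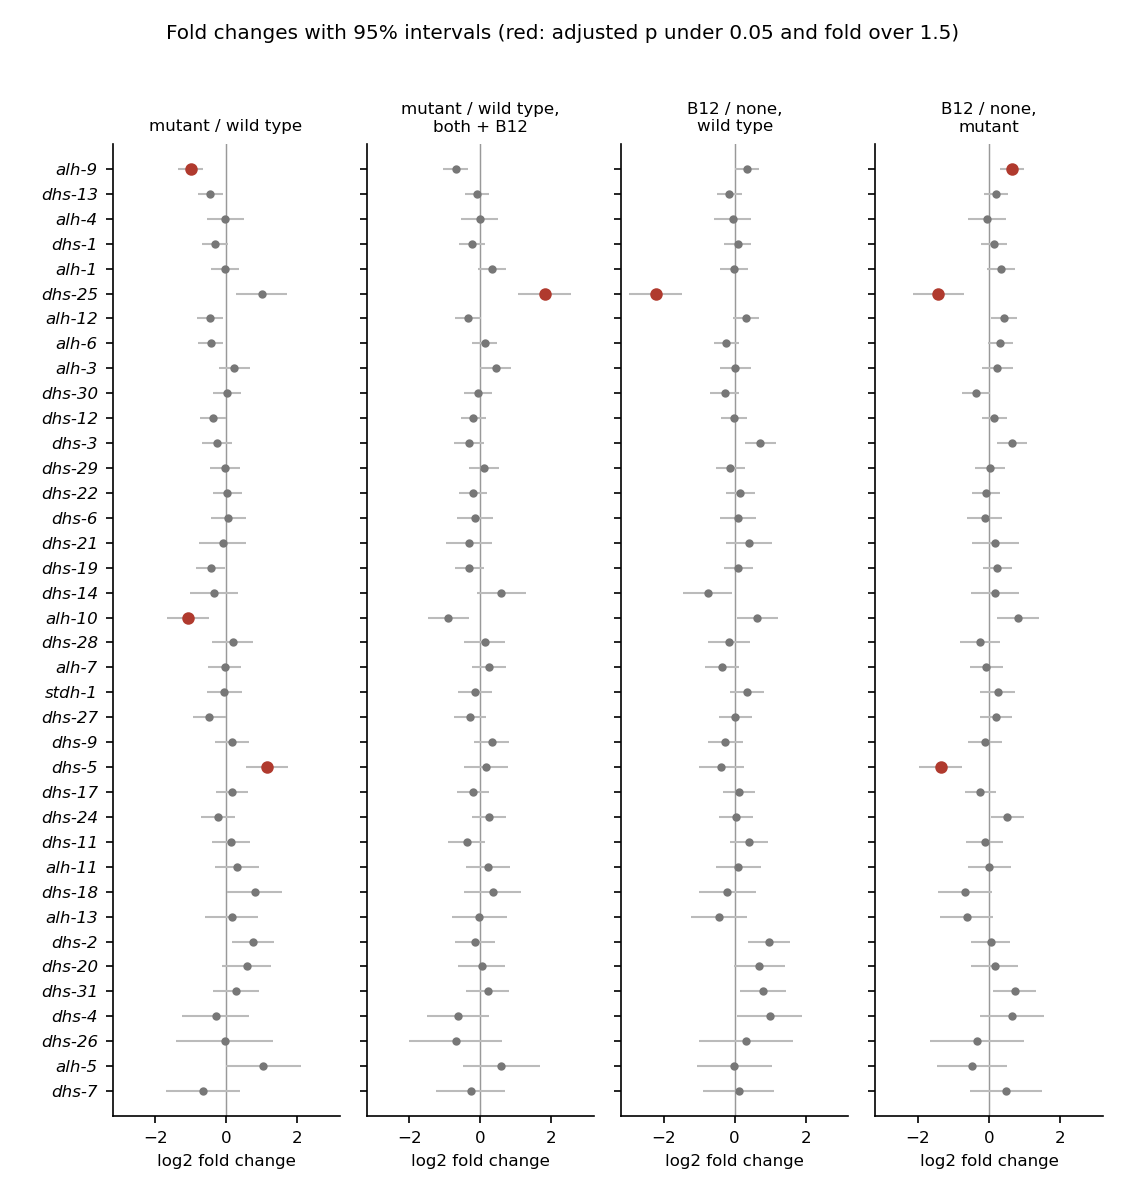
Log2 fold changes with 95% intervals of the 38 tested genes, in the order of their mean CPM, with 1 panel for each of the 2 strain comparisons and each of the 2 diet comparisons. Red points passed the test; they belong to *alh-9*, *alh-10*, *dhs-5* and *dhs-25*, and the other 34 genes have none.

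The test of the difference between the strains' responses to vitamin B12 called 0 of the 38 genes, and 0.0444% of all genes, at an adjusted p under 0.05. DESeq2 also called 0. At an unadjusted p under 0.05 there were 3 members (7.89%, against 4.09% of all genes), *dhs-5*, *alh-6* and *dhs-2*. The last was named after its values had been seen. *alh-6* differed by 0.56 (unadjusted p = 0.0273) and *dhs-2* by -0.91 (unadjusted p = 0.0294).

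The other 34 tested genes passed in none of the comparisons. Their log2 fold changes ran from -0.65 to 1.05 between the unsupplemented strains, from -0.70 to 0.59 between the supplemented strains, from -0.76 to 0.98 for vitamin B12 in wild type and from -0.67 to 0.72 for vitamin B12 in mutants. Between 28 and 30 of the 34 were within 0.58, the log2 of the fold minimum, in each of the 4.

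*dhs-3* encodes a protein of the lipid droplets of the intestine. It was at 19.9, 23.6, 30.2, 17.8 and 29.2 CPM in unsupplemented wild type and at 29.0, 39.3, 45.9, 30.8 and 54.6 CPM in wild type with vitamin B12. All 5 same-numbered pairs were higher with vitamin B12 and the groups overlapped. The log2 fold change of 0.72 (95% interval 0.29 to 1.15, adjusted p = 0.0982) did not pass, while it did with the replicate block (0.72, adjusted p = 0.0382) and in DESeq2 (adjusted p = 0.0333). In mutants *dhs-3* was at 23.9, 18.9, 18.2, 19.5 and 20.2 CPM without and at 28.3, 24.6, 26.2, 37.1 and 43.3 CPM with vitamin B12. These groups did not overlap, and the value of 0.65 (95% interval 0.22 to 1.08, adjusted p = 0.144) did not pass. *dhs-3* overlaps *gla-3*, at 54.3 CPM, and *T02E1.6*, at 0.262 CPM, on the other strand, and *gla-3* passed in no comparison.

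Among the aldehyde dehydrogenases with known substrates, none but *alh-9* passed. *alh-4*, a fatty aldehyde dehydrogenase, had group means of 229 to 241 CPM and a log2 fold change of -0.02 between the unsupplemented strains (95% interval -0.54 to 0.50). *alh-1*, the ortholog of human mitochondrial ALDH2, had -0.04 in that comparison (95% interval -0.44 to 0.36) and 0.34 with vitamin B12 in mutants (95% interval -0.05 to 0.74). *alh-6*, the pyrroline-5-carboxylate dehydrogenase of proline breakdown, gave -0.44 (95% interval -0.78 to -0.09, adjusted p = 0.198) between the unsupplemented strains, with 5 of 5 pairs lower in mutants. *alh-13*, the pyrroline-5-carboxylate synthase of proline synthesis, gave 0.16 (95% interval -0.59 to 0.91).

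*alh-3*, a formyltetrahydrofolate dehydrogenase of the folate cycle, had group means from 37.3 to 50.9 CPM, and its value between the supplemented strains was 0.44 (95% interval 0.00 to 0.87, adjusted p = 0.732). *alh-7*, the succinate semialdehyde dehydrogenase of GABA breakdown, had means of 8.83 to 11.4 CPM. Of 6 other genes of lysine, GABA, proline and folate metabolism (*aass-1*, *gta-1*, *prdh-1*, *pycr-1*, *mel-32* and *mthf-1*), 0 passed in any comparison. For vitamin B12 in wild type *mthf-1* gave -1.07 (95% interval -1.70 to -0.44, edgeR adjusted p = 0.0915), lower in 5 of 5 pairs. There *mel-32* gave -0.82 (95% interval -1.43 to -0.22, edgeR adjusted p = 0.281), also lower in 5 of 5 pairs. The others ran from -0.53 (*aass-1*) to 0.18 (*prdh-1*) in that comparison. *aass-1*, whose product acts before ALH-9 in lysine breakdown, gave -0.24 between the unsupplemented strains (95% interval -0.76 to 0.28).

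*dhs-28* encodes an enzyme of peroxisomal β-oxidation that shortens the side chains of ascaroside pheromones. Its level was 12.01 ± 7.63 CPM in wild type and 13.4 ± 6.65 CPM in mutants, and the log2 fold change was 0.19 (95% interval -0.38 to 0.77). Of 8 other peroxisomal genes, the acyl-CoA oxidases *acox-1.1* to *acox-1.5* and *acox-3* with *maoc-1* and *daf-22*, 0 passed in any comparison. *dhs-28* overlaps *gei-15* on the other strand, a gene at 4.57 CPM. *dhs-21*, an L-xylulose reductase, was at 20.4 ± 13.5 CPM in wild type and 19.3 ± 6.17 CPM in mutants, and overlaps *R11D1.10* on the other strand, a gene at 5.28 CPM.

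*dhs-13* and *dhs-1*, 2 short-chain dehydrogenase genes among the 5 with the most counts, passed in no comparison. *dhs-13* was at 354, 412, 298, 425 and 392 CPM in unsupplemented wild type and at 248, 291, 267, 351 and 225 CPM in mutants. The groups overlapped, mutants were lower in 5 of 5 pairs, and the value of -0.45 (95% interval -0.79 to -0.10, adjusted p = 0.186) did not pass. *dhs-1* gave -0.30 (95% interval -0.67 to 0.06).

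The other 9 genes were removed by the filter on low counts. *dhs-16*, which acts in the synthesis of dafachronic acids, the steroid ligands of DAF-12, had 39 counts in 20 libraries, with 1 in unsupplemented wild type, 11 in mutants, 8 in wild type with vitamin B12 and 19 in mutants with it. Its pathway partners *daf-9* and *daf-36* passed in 0 comparisons. *stdh-2*, *stdh-3* and *stdh-4*, which are related to the steroid dehydrogenase gene *let-767*, had 25, 1 and 5 counts, whereas *stdh-1*, whose start lies 495 bases beyond the end of *stdh-3* on the same strand, had a mean of 9.99 CPM. The others were *dhs-15* with 86, *dhs-23* with 55, *sodh-2* with 42, *dhs-8* with 25 and *alh-2* with 3 counts. In the fit without the filter on low counts 0 of the 9 passed in any comparison. The only unadjusted p under 0.05 there was that of *dhs-16* between the unsupplemented strains (edgeR adjusted p = 0.360). *sodh-2* overlaps the end of *adh-1* on the other strand of chromosome V, so the reads of this pair may not be told apart either. *adh-1*, the ethanol dehydrogenase gene once called *sodh-1*, was not a member by its symbol, had a mean of 51.3 CPM and passed in no comparison. Its libraries spread widely. In mutants with vitamin B12 they ran from 11.8 to 276 CPM with a median of 33.4, the highest being replicate 1.

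Of 7 further dehydrogenase genes outside the families, 4 were tested. One of them, *hphd-1* of the propionate shunt, passed. It was higher in mutants than in wild type when both had vitamin B12 and lower with vitamin B12 in each strain, the comparisons in which *dhs-25* also passed. These comparisons share libraries, and no test of likeness was made.

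The share of these genes that differed between the library series was near that of all genes. Between the 12 libraries of replicates 5, 6 and 7 and the 8 of replicates 1 and 2, a comparison made after the values had been seen, 13 of the 38 genes passed (34.2%), 5 higher and 8 lower in replicates 5, 6 and 7, against 38.9% of all genes. *stdh-1* was 2.87-fold and *dhs-28* 2.29-fold higher, and *alh-6* was 2.24-fold lower. *dhs-5* was 1.71-fold lower. *alh-9* (log2 -0.51, edgeR adjusted p = 0.00119) missed only the fold minimum. *alh-10* (-0.42, edgeR adjusted p = 0.0882) and *dhs-25* (-0.27, edgeR adjusted p = 0.391) passed neither threshold. *stdh-1* was at 3.09 to 6.35 CPM in the 8 libraries of the first series and at 8.63 to 21.9 CPM in the 12 of the second, with no overlap. Each group held both series in the same numbers, and the fit carried the series as a term.

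**Figure D4:**
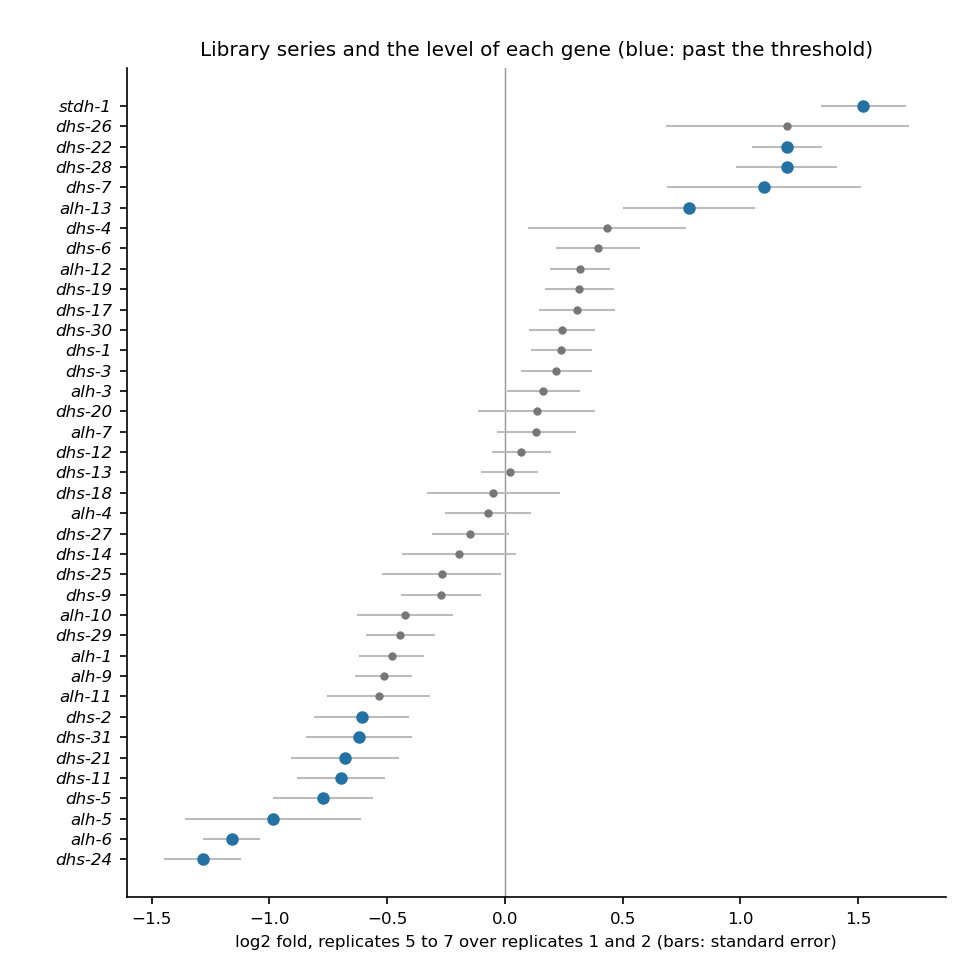
Log2 fold between the 12 libraries of replicates 5, 6 and 7 and the 8 of replicates 1 and 2 for each of the 38 genes, with standard errors; blue points passed the test. *stdh-1* has the highest value and *dhs-24* the lowest, and 13 of the 38 genes are blue.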

How the data were processed

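Whole-number read counts per gene of 20 Cel-seq2 libraries were used as the authors deposited them, without normalization. The authors demultiplexed the libraries with a python script, trimmed with Trimmomatic 0.32, aligned with STAR and counted with ESAT with pseudogenes discarded; the STAR version, genome build, strand setting and treatment of molecular identifiers are not given in the sources used here. Of 22736 identifiers, 22497 matched a symbol of the WBcel235 annotation and 239 did not. Groups came from the sample labels.

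Counts were filtered with filterByExpr by group (11270 genes left) and scaled with TMM in edgeR 4.0.16 under R 4.3.3. The functions glmQLFit and glmQLFTest were run on all 20 libraries with group and library series as terms and Benjamini-Hochberg adjustment per comparison over all genes. Calls needed a fold over 1.5 and an adjusted p under 0.05 (no fold minimum for the difference of responses). CPM values are on TMM-scaled library sizes. Alternatives were normalization, filter, tool (DESeq2 1.42.0), series term, replicate block, libraries in the fit, fold minimum, each series alone and each library left out. Figures were drawn with matplotlib 3.10.9.

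Same-numbered libraries of different groups deviated together (correlations of deviations from the group means 0.156 to 0.757, median 0.547), so replicate numbers were taken as pairing the libraries, from the data and not from a label. The fit behind the calls holds the library series but not the replicate number, which entered only as the block of an alternative fit, given beside each result whose call it changed. Part of the shared deviation went with the library series. Within the series the correlations ran from 0.0526 to 0.703, so pairing beyond the series remained for some libraries. No 2 replicates agreed within sampling noise. Library totals were 2837943 to 15457950 counts. Since CPM values rest on counting, low genes are less precise.

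The genes named are those called in a comparison, the 5 with the highest mean CPM and those of known role; others are given as counts. The members, the gene lists and the rule for naming genes were chosen with earlier results of these data known. Sequences were not used here.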

Additional observations from a re-analysis of the deposited data

Results flagged for a closer look

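Among the 16 sets of 5 libraries formed by the 4 called genes and 4 groups, 2 held a library far from the rest by Dixon's test (gap over range above 0.71). The gaps and ranges were taken on log2 CPM with a small constant added, not on CPM. Chance alone gives about 1 such set in 20. *dhs-5* in unsupplemented wild-type replicate 1 was at 19.4 CPM, with a gap of 0.948 of the log2 range, while the other 4 wild-type libraries were between 4.35 and 4.72 CPM. *alh-10* in mutant replicate 5 with vitamin B12 was at 8.13 CPM, with a gap of 0.734 of the log2 range, below the other 4 at 13.2 to 15.8 CPM.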

How the results depend on the processing

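Of the values of named genes that were called or had an unadjusted p under 0.05, recomputed under each alternative, 338 kept their direction and side of the threshold, 53 no longer passed, 7 newly passed and 0 reversed. Outside these, *dhs-5* for vitamin B12 in wild type turned from -0.37 to 0.18 without wild-type replicate 1. The count of 3 genes between the unsupplemented strains became 1 without the series term, 0 in the first series alone, 1 in the second alone and 4 without the filter, where *dhs-25* was added, and 1 to 2 with a library left out. Between the supplemented strains the count of 1 became 2 in DESeq2, 2 with the replicate block and 0 in either series alone, and 0 to 2 with a library left out. For vitamin B12 in wild type the count of 1 became 2 in DESeq2, 2 with the replicate block and 0 in the first series alone, and stayed at 1 with any library left out. For vitamin B12 in mutants the count of 3 became 0 without the series term and in either series alone, 2 without the filter, where *alh-9* lost its call, and 1 to 3 with a library left out. With the replicate block the counts were 4, 2, 2, 3 and 0 in the order of the comparisons and the difference of responses, and no called gene lost its call. Within 1 series there are 2 or 3 libraries a group, so fewer samples enter those fits. Scaling by library totals alone moved the median of all genes by 0.13 between the unsupplemented strains, gave 313 genes higher and 83 lower against 205 and 112, and ended the call of *alh-10* (-0.96, adjusted p = 0.0671). It also ended that of *alh-9* for vitamin B12 in mutants (0.61, adjusted p = 0.0719). Over all genes the calls ranged from 22 to 627 around 317 between the unsupplemented strains, 5 to 194 around 62 between the supplemented strains, 12 to 342 around 163 for vitamin B12 in wild type, 8 to 413 around 210 in mutants and 0 to 80 around 5 for the difference, lowest in the first series alone and highest without the filter or with the replicate block. The 9 genes below the filter had at most 86 counts each.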
